A study of Mus musculus with 8 samples.

Results

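The genes studied here encode 10 proteins that bind maternal mRNA in the oocyte and take part in its storage or in the control of its translation. They were chosen by gene symbol, with earlier results of these data known. All 10 were listed in each of the 8 deposited tables and passed the filter on low values, among 13968 genes tested. By role they are the zygote arrest proteins (*Zar1*, *Zar1l*), the Y-box proteins (*Ybx2*, *Ybx1*), the helicase DDX6 with the repressor proteins that work with it (*Ddx6*, *Lsm14a*, *Lsm14b*, *Eif4enif1*, *Patl2*), and the germ cell RNA-binding protein DAZL (*Dazl*).

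A growing mouse oocyte makes far more mRNA than it translates and packs the surplus, with short poly(A) tails, into ribonucleoprotein particles. When the oocyte leaves the germinal vesicle (GV) stage and matures to metaphase II (MII), the packed mRNAs are either given longer tails and translated or stripped of their tails and destroyed. BTG4 takes part in the second route by bringing the CCR4-NOT deadenylase to maternal transcripts. The mRNAs of the storage proteins are maternal transcripts themselves, so their levels can be followed through the same passage.

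Polyadenylated RNA was sequenced by Smart-seq2 from 4 groups of oocytes with 2 libraries each and 15 oocytes per library. GV and MII were control oocytes from in vitro culture, labelled WT. Btg4wt and Btg4tm were MII oocytes in which Myc-tagged BTG4 was overexpressed by injection of cRNA into fully grown oocytes, as the wild-type protein in Btg4wt and with 3 neighbouring threonine and serine residues changed to alanine in Btg4tm. The methods of the study describe 6-week-old female mice of the outbred ICR stock, and no animal or culture is given for a library, so the p-values below measure the spread between these libraries, which may be technical. No removal of the endogenous *Btg4* is described, no mock-injected group was analysed here, and the tables cannot separate injected from endogenous *Btg4* sequence. *Btg4* stood at 2650 and 2794 scaled TPM in GV, 5792 and 6002 in MII, 5178 and 5510 in Btg4wt, and 3725 and 4068 in Btg4tm, so its level was not higher in the injected than in the control MII oocytes and does not check the labels.

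TPM (a read count divided by gene length and expressed as a share of the library) were scaled between libraries by the median of ratios, a factor set so that the typical gene does not change. Each level below is a scaled TPM with mean ± SD (n = 2), and each fold change is a difference of log2(scaled TPM + 1) with its SE. A gene was called higher or lower when the limma test gave an adjusted p under 0.05 (Benjamini-Hochberg over all genes tested) and the log2 fold change exceeded 1 in size. All 10 oocyte markers examined were present in every library, the lowest being *Figla* at 8.59 TPM or more. Of 16 cumulus and granulosa cell markers, 7 were listed in the control tables and 9 in the injection tables, with a sum of 36.9 to 49.3 TPM per library, mostly *Cyp19a1* and *Nr5a2*, while *Has2*, *Ptx3*, *Tnfaip6*, *Amh*, *Inhba*, *Foxl2* and *Col1a1* were listed in none. Single markers differed between groups in both directions. *Inha* was at 9.74 and 4.91 TPM in Btg4tm and 0 and 0.516 in MII, and *Nr5a2* at 8.88 and 9.20 in Btg4tm and 15.0 and 16.0 in MII. Replicates correlated across genes at 0.982 to 0.987, and the median difference between replicates over the 10 genes was 0.10 to 0.19 on the log2 scale.

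One property of the libraries bears on every direction given below. Transcripts of the mitochondrial genome took 0.625% and 0.651% of the TPM in GV, 2.71% and 2.60% in MII, 2.07% and 1.77% in Btg4wt, and 0.774% and 1.03% in Btg4tm. Scaled to these transcripts instead, the median of all genes moved by -1.74 (log2) from GV to MII and by 0.88 from Btg4wt to Btg4tm, so the changes are reported relative to the typical gene and the mitochondrially scaled value is given where it turns a direction. RNA per oocyte was not measured. Fewer intact oocytes and less RNA per oocyte cannot be told apart in such libraries. Because reverse transcription started from oligo(dT), loss of an RNA and loss of its poly(A) tail cannot be told apart either. The same holds for gain of an RNA and a lengthened tail, so a rise below may be either.

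Since reverse transcription starts at the tail, the annotated 3′ ends of the mRNAs are shown for the 7 members called in a comparison below, for *Zar1* as the paralog of *Zar1l*, and for *Ybx1*, which holds a tail-related motif. Positions are from GRCm38 with GENCODE M21 gene models, and each run of 30 bases is written 5′ to 3′ on the gene's strand, with the motif in capitals. The first 6 show the polyadenylation signal (AATAAA), and the last 3 show a cytoplasmic polyadenylation element, the U-rich signal at which CPEB proteins lengthen tails in maturing oocytes (searched as TTTTAT and TTTTAAT on the transcribed strand).
Zar1l, last exon across the stop codon, minus strand, chr5:150507056-150507085: tcttcagcttaaAATAAAccttgtgacagt
Zar1, 3′ UTR, minus strand, chr5:72577117-72577146: ataaagcctgtgAATAAAaggtattgcaaa
Patl2, 3′ UTR, minus strand, chr2:122120115-122120144: ggccttgtatttAATAAAagtctaatctgg
Dazl, 3′ UTR, minus strand, chr17:50279400-50279429: cttgtatacacgAATAAAacctttttttca
Lsm14b, 3′ UTR, plus strand, chr2:180035429-180035458: aaatgcaaactaAATAAAcattggactctt
Ddx6, 3′ UTR, plus strand, chr9:44640697-44640726: ttaatttatctcAATAAAagcccactggaa
Ybx2, 3′ UTR, plus strand, chr11:69941532-69941561: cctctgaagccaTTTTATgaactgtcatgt
Ybx1, 3′ UTR, minus strand, chr4:119278051-119278080: taagaacttcatTTTTAATttgtaataaag
Lsm14a, 3′ UTR, minus strand, chr7:34344670-34344699: gccactttgtgtTTTTAATaaaggccatgg

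In the last 100 bases of the longest coding transcript, TTTTAT was found in *Ybx2* and TTTTAAT in *Ybx1* and *Lsm14a*, and in *Lsm14a* the element overlaps a polyadenylation signal. Either element was found in this window in 16.6% of 21828 coding genes. TTTGTTT, a motif bound by DAZL, was found in none of the 10 members and in 5.66% of coding genes. AATAAA was found in 8 members and in 61.6% of coding genes, *Eif4enif1* had the variant ATTAAA, found in 19.3%, and *Ybx2* had neither. The annotated 3′ UTR ranged from 14 bases in *Zar1l* and 146 in *Zar1* to 1852 in *Dazl* and 4250 in *Ddx6*. The window of *Zar1l* was thus mostly coding sequence, so the lack of an element there says little about its 3′ UTR. These are matches of letters in an annotation, not measured binding sites.

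*Zar1* lies at chr5:72576806-72581254, *Zar1l* at chr5:150507055-150518164, *Ybx2* at chr11:69935796-69941605, *Ybx1* at chr4:119277981-119294604 and *Dazl* at chr17:50279395-50293636. *Ddx6* lies at chr9:44604892-44640731, *Lsm14a* at chr7:34344646-34393315, *Lsm14b* at chr2:180024987-180035465, *Eif4enif1* at chr11:3202392-3244588 and *Patl2* at chr2:122120108-122186189. In the longest coding transcript of each of the 10 genes, no exon overlaps an exon of another annotated gene. Exons of their other transcripts were not examined. However, 3 of the genes share sequence with copies elsewhere. The share of bases of the longest coding transcript that lie in 50-base runs also found in transcripts of other genes was computed. It was 45.0% for *Ybx1*, 42.6% for *Zar1* and 8.49% for *Ddx6*, and 0 for the other members. Reads with a low mapping quality were dropped by the authors, so the levels of these 3 genes are uncertain. Among the copies, *E130201H02Rik*, which shares sequence with *Ybx1*, stood at 7.87 to 35.8 TPM and *Gm15847*, which shares sequence with *Zar1*, at 1.16 to 8.72 TPM.

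The first question was how the storage genes changed in normal maturation. From GV to MII, *Zar1l*, *Ybx2* and *Patl2* fell under both scalings, while *Lsm14a*, *Lsm14b* and *Dazl* rose relative to the typical gene, although with mitochondrial scaling the last 3 had values of -0.72, -0.55 and -1.0. Thus 3 of 10 members were called higher, against 12.5% of all genes tested, and 3 of 10 lower, against 24.0%. The other 4 had log2 fold changes within 1. Between Btg4wt and Btg4tm, the second comparison, 2 of 10 were called higher in Btg4tm (*Zar1l* and *Ybx2*), against 18.1% of all genes, and 2 of 10 lower (*Ddx6* and *Lsm14b*), against 7.94%. The values of *Ddx6* and *Lsm14b* in that comparison were -0.53 and -0.07 with mitochondrial scaling and were then not called.

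**Figure D1:**
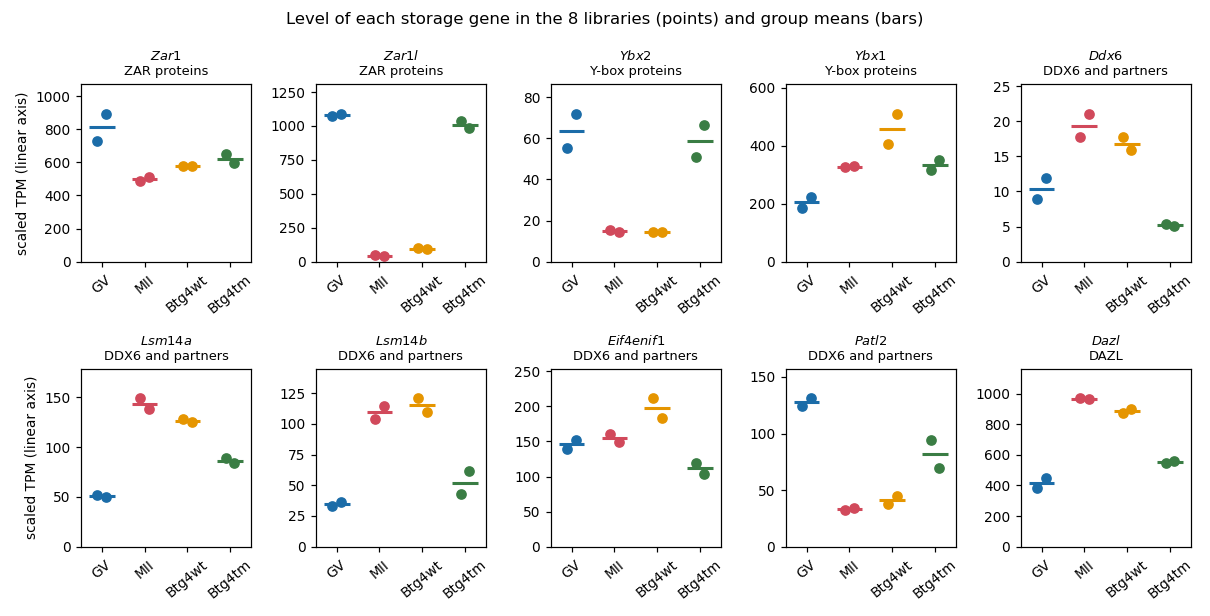
Scaled TPM (vertical axis, linear, from 0) of the 10 storage genes in GV, MII, Btg4wt and Btg4tm oocytes. Points are the 2 libraries of a group and bars are group means. *Zar1l* stood at 983 to 1091 in GV and Btg4tm and at or under 100 in MII and Btg4wt.

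ZAR1 and ZAR1L are zinc-finger proteins that bind the 3′ UTRs of maternal mRNAs and hold them in storage particles. *Zar1l* was at 1072 and 1091 scaled TPM in GV, 49.4 and 39.7 in MII, 100 and 92.5 in Btg4wt, and 1038 and 983 in Btg4tm. The 4 libraries of GV and Btg4tm were all at 983 or above and the 4 libraries of MII and Btg4wt all at or under 100. From GV to MII it fell by 4.58 ± 0.12 on the log2 scale (adjusted p = 2.2e-07, limma), a mean 24.3 times lower. Btg4tm exceeded Btg4wt by 3.38 ± 0.12 (adjusted p = 9e-07), or 10.5 times. Both values were the largest in size among the 10 members in their comparison.

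*Zar1* did not share that drop. It stood at 728 and 894 scaled TPM in GV, 487 and 512 in MII, 578 and 576 in Btg4wt, and 648 and 597 in Btg4tm. GV was the highest group and MII the lowest, with no overlap between these groups. The change from GV to MII was -0.69 ± 0.12 (adjusted p = 0.00098), under the fold needed for a call, and it was -2.90 and called with mitochondrial scaling. Btg4tm differed from Btg4wt by 0.11 ± 0.12 (adjusted p = 0.47, 95% interval -0.16 to 0.37). With mitochondrial scaling the same difference was 1.19 and was called.

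A ratio between paralogs within a library does not depend on the scaling between libraries. *Zar1l* over *Zar1* was 1.47 and 1.22 in GV, 0.101 and 0.0774 in MII, 0.173 and 0.160 in Btg4wt, and 1.60 and 1.65 in Btg4tm. *Zar1l* had the higher TPM of the pair in the libraries of GV and Btg4tm and *Zar1* in those of MII and Btg4wt. The order in GV and Btg4tm is uncertain, since there the ratios are at most 1.65 and *Zar1* may be undercounted. Of the bases of the *Zar1* transcript, 42.6% lie in shared 50-base runs. With 2 libraries a group an exact two-sided permutation test cannot go below 0.333, so the ratios are given as a description.

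**Figure D2:**
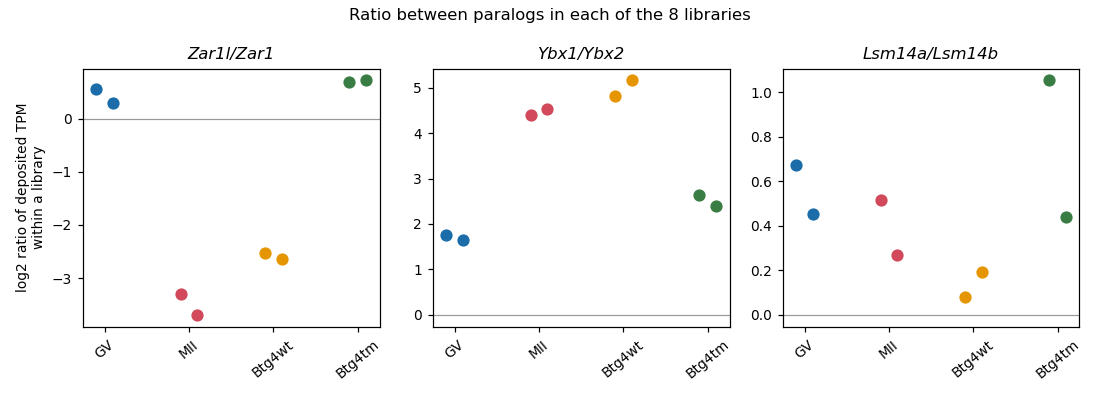
Log2 ratio of deposited TPM between 3 pairs of paralogs within each library (points), by group. *Zar1l* over *Zar1* lay above 0 in GV and Btg4tm and below -2 in MII and Btg4wt, *Ybx1* over *Ybx2* was above 0 throughout, and *Lsm14a* over *Lsm14b* overlapped between GV, MII and Btg4tm.

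YBX2 (MSY2) is the germ cell Y-box protein that coats and stabilises oocyte mRNA, and YBX1 is its widely expressed relative. *Ybx2* was at 55.4 and 72.0 scaled TPM in GV, 15.5 and 14.3 in MII, 14.5 and 14.3 in Btg4wt, and 50.9 and 66.4 in Btg4tm. The libraries of GV and Btg4tm overlapped each other and all lay above those of MII and Btg4wt. *Ybx2* fell by 2.02 ± 0.17 from GV to MII (adjusted p = 2.5e-05) and was 1.94 ± 0.17 higher in Btg4tm than in Btg4wt (adjusted p = 5.2e-05). The means differed 4.29 and 4.08 times.

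*Ybx1* was at 186 and 225 scaled TPM in GV, 326 and 331 in MII, 407 and 511 in Btg4wt, and 317 and 350 in Btg4tm. GV was lowest, Btg4wt highest, and MII and Btg4tm overlapped. Its change from GV to MII was 0.68 ± 0.14 (adjusted p = 0.0029) and -1.53 with mitochondrial scaling, and from Btg4wt to Btg4tm it was -0.45 (adjusted p = 0.026) and 0.63 with mitochondrial scaling. None of the values with the typical gene as reference passed the fold needed for a call. Within libraries, *Ybx1* exceeded *Ybx2* 3.36 and 3.12 times in GV, 21.0 and 23.2 times in MII, 28.1 and 35.8 times in Btg4wt, and 6.22 and 5.28 times in Btg4tm.

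DDX6 is the DEAD-box helicase at the core of repressed mRNPs and P-bodies. Its mRNA had the lowest mean scaled TPM of the members in GV and in Btg4tm. *Ddx6* had 8.88 and 11.9 scaled TPM in GV, 17.7 and 21.1 in MII, 17.8 and 15.9 in Btg4wt, and 5.33 and 5.15 in Btg4tm. MII and Btg4wt overlapped and were highest, and Btg4tm lay below every other library. The change from GV to MII was 0.85 ± 0.18 (adjusted p = 0.0038), not called, and it was -1.22 and called with mitochondrial scaling. *Ddx6* was 1.51 ± 0.18 lower in Btg4tm than in Btg4wt (adjusted p = 0.00025), a mean 3.21 times lower, although the difference was -0.53 (adjusted p = 0.088) with mitochondrial scaling.

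LSM14A and LSM14B are Sm-like scaffold proteins that bind DDX6 and 4E-T. *Lsm14a* was at 52.2 and 50.2 scaled TPM in GV, 149 and 139 in MII, 128 and 125 in Btg4wt, and 89.1 and 83.7 in Btg4tm. *Lsm14b* was at 32.7 and 36.7 in GV, 104 and 115 in MII, 121 and 109 in Btg4wt, and 42.9 and 61.6 in Btg4tm. For both genes GV was the lowest group and Btg4tm lay between GV and the other MII libraries.

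From GV to MII *Lsm14a* rose by 1.47 ± 0.10 (adjusted p = 7.2e-06) and *Lsm14b* by 1.63 ± 0.17 (adjusted p = 7e-05) relative to the typical gene, both turning to the negative values given above with mitochondrial scaling. *Lsm14b* was 1.15 ± 0.17 lower in Btg4tm than in Btg4wt (adjusted p = 0.00077). That call rested on both Btg4tm libraries, since without Btg4tm replicate 1 the value was -0.89, under the fold needed. *Lsm14a* differed by -0.54 (adjusted p = 0.0022), not called, and by 0.53 with mitochondrial scaling. The ratio of *Lsm14a* to *Lsm14b* was 1.06 to 2.08 in the 8 libraries and overlapped between GV, MII and Btg4tm, with Btg4wt lowest.

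*Eif4enif1* encodes 4E-T, which binds the cap-binding protein eIF4E and holds mRNA in a repressed state. It had 140 and 152 scaled TPM in GV, 161 and 150 in MII, 211 and 183 in Btg4wt, and 120 and 104 in Btg4tm. GV and MII overlapped, and their difference was 0.09 ± 0.12 (adjusted p = 0.53, 95% interval -0.18 to 0.36). Its sign depended on the scaling, with -0.07 on TPM as deposited and -2.11 with mitochondrial scaling. Btg4tm was the lowest group and Btg4wt the highest, a difference of -0.81 (adjusted p = 0.0007), not called, which was 0.27 with mitochondrial scaling.

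PATL2 is an oocyte-enriched member of the PAT1 family of translational repressors, and mutations of the human gene arrest oocyte maturation. *Patl2* was at 124 and 131 scaled TPM in GV, 32.2 and 34.6 in MII, 37.5 and 44.9 in Btg4wt, and 94.4 and 69.1 in Btg4tm. The order GV, Btg4tm, Btg4wt, MII held with no overlap between groups. It fell by 1.90 ± 0.16 from GV to MII (adjusted p = 2.4e-05), a mean 3.82 times lower. Btg4tm exceeded Btg4wt by 0.96 ± 0.16 (adjusted p = 0.0015), just under the fold needed, and the value was 1.09 without Btg4wt replicate 2, 1.18 without Btg4tm replicate 2 and 2.03 with mitochondrial scaling, each then called.

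DAZL binds the 3′ UTRs of stored mRNAs and promotes their translation during maturation. *Dazl* was at 385 and 450 scaled TPM in GV, 968 and 962 in MII, 871 and 901 in Btg4wt, and 548 and 563 in Btg4tm. The 4 groups did not overlap, and Btg4tm lay between GV and the other MII libraries. From GV to MII it rose by 1.21 ± 0.10 relative to the typical gene (adjusted p = 2.1e-05), with -1.0 and a call in the lower direction under mitochondrial scaling. The difference of Btg4tm from Btg4wt was -0.67 (adjusted p = 0.00077), not called, and 0.41 with mitochondrial scaling.

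**Figure D3:**
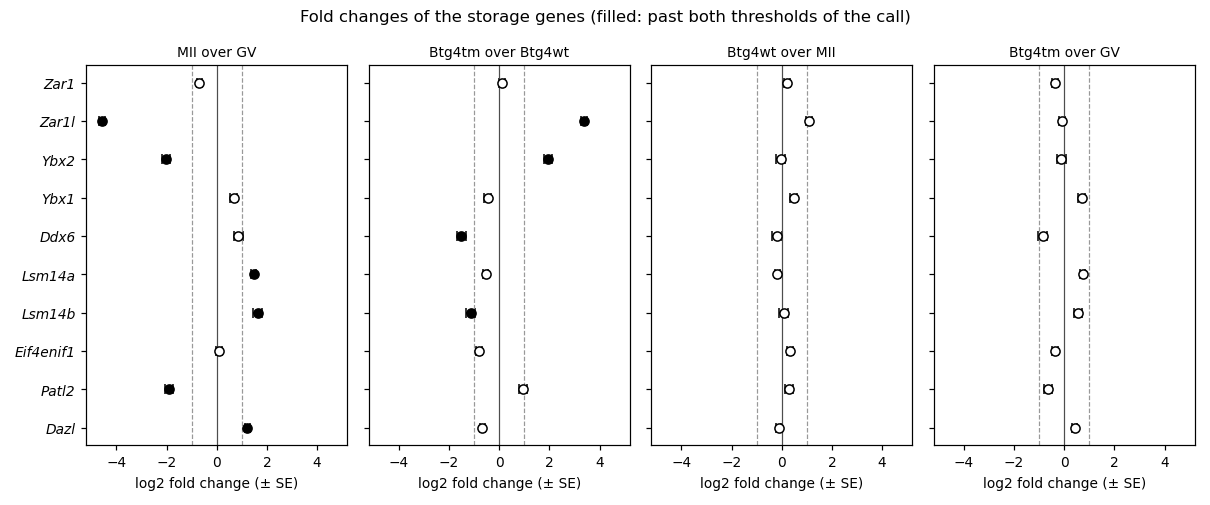
Log2 fold change of each storage gene (horizontal axis, points ± SE from limma) in 4 comparisons with median-of-ratios scaling. Filled points passed both thresholds of the call and dashed lines mark a log2 fold change of 1 in either direction. The 6 called members in MII over GV and the 4 in Btg4tm over Btg4wt are filled, and no point is filled in the other comparisons. With mitochondrial scaling *Lsm14a*, *Lsm14b* and *Dazl* turn negative in MII over GV.

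**Figure D4:**
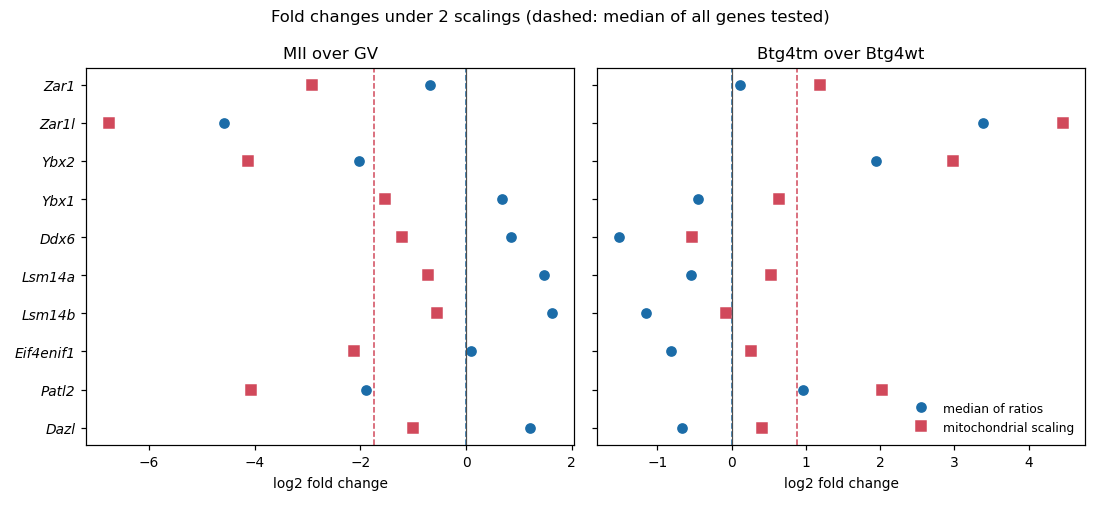
Log2 fold change of each storage gene (horizontal axis) with median-of-ratios scaling (circles) and with scaling to mitochondrial transcripts (squares), in 2 comparisons. Dashed lines show the median of all genes tested under each scaling, -1.74 and 0.88 for the mitochondrial one. In MII over GV the squares of *Dazl*, *Lsm14a*, *Lsm14b*, *Ddx6* and *Ybx1* lie below 0 but to the right of their median.

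Mitochondrial scaling multiplies each library by 1 factor, so values taken relative to its all-gene median stay near those of the first scaling by construction and are no check of them. On that scale, in MII over GV, *Zar1l* stood at -5.02, *Ybx2* at -2.38 and *Patl2* at -2.33. *Lsm14b* stood at 1.19, *Lsm14a* at 1.02 and *Dazl* at 0.74. In Btg4tm over Btg4wt, *Zar1l* stood at 3.58, *Ybx2* at 2.10 and *Patl2* at 1.15, with *Ddx6* at -1.41 and *Lsm14b* at -0.95.

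The comparisons below share the libraries of those above, so their values are set side by side and are not independent. Btg4wt over MII compares oocytes injected for the wild-type protein with control MII oocytes. Injection itself, the protein and the different gene lists of control and injection libraries cannot be told apart in it. No member was called higher, against 0% of all genes, or lower, against 0%, with 0 calls among 13968 genes by limma. At an unadjusted p under 0.05 there were 1655 genes, or 11.8%, and 3 members (*Zar1l*, *Ybx1* and *Eif4enif1*). *Zar1l* had the largest difference of the members, 1.10 ± 0.12 (adjusted p = 0.086), which passed the fold but not the p, with both Btg4wt libraries above both MII libraries. With mitochondrial scaling it was 1.57 (adjusted p = 0.035) and called.

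Btg4tm over GV asks how far oocytes with the mutant protein stood from the immature state, with the same limit. No member was called higher, against 1.02% of all genes tested, and none lower, against 1.02%. The limma test gave 5 members an adjusted p under 0.05, all at log2 fold changes within 1. Of the 13968 genes tested, 1591 had such a p at any fold change. At an unadjusted p under 0.05 there were 8 members and 29.7% of all genes. The 5 were *Lsm14a* at 0.74 (adjusted p = 0.0055), *Ybx1* at 0.70 (0.018), *Dazl* at 0.41 (0.036), *Ddx6* at -0.85 (0.025) and *Patl2* at -0.65 (0.04). *Zar1l* differed by -0.10 (adjusted p = 0.62) and *Ybx2* by -0.12 (adjusted p = 0.69). With mitochondrial scaling 4 members were called lower (*Zar1* at -1.01, *Ddx6* at -1.48, *Eif4enif1* at -1.02 and *Patl2* at -1.28), against 21.3% of all genes. Under that scaling *Dazl* was at -0.22 and the median of all genes was -0.64.

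These differences changed which storage transcript had the highest TPM. The gene lengths behind the TPM are not given and capture starts at the tail, so the orders below are orders of TPM and may differ from those of RNA molecules. In GV the order of mean levels was *Zar1l*, *Zar1*, *Dazl*, *Ybx1*, *Eif4enif1*, *Patl2*, *Ybx2*, *Lsm14a*, *Lsm14b* and *Ddx6*. In both MII and Btg4wt it was *Dazl*, *Zar1*, *Ybx1*, *Eif4enif1*, *Lsm14a*, *Lsm14b*, *Zar1l*, *Patl2*, *Ddx6* and *Ybx2*. No neighbours in these orders overlapped between replicates, although the places of *Zar1*, *Ybx1* and *Ddx6* carry the uncertainty of their shared sequence. In Btg4tm it was *Zar1l*, *Zar1*, *Dazl*, *Ybx1*, *Eif4enif1*, *Lsm14a*, *Patl2*, *Ybx2*, *Lsm14b* and *Ddx6*, where *Lsm14a* and *Patl2*, and *Ybx2* and *Lsm14b*, overlapped.

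Among all genes tested, *Zar1l* stood at percentile 99.3 of the mean level in GV, 80.7 in MII, 89.5 in Btg4wt and 99.1 in Btg4tm. *Zar1* stayed at percentile 98.0 or above in all 4 groups. *Ddx6* stood at percentile 50.8 in GV, 67.4 in MII, 64.2 in Btg4wt and 38.4 in Btg4tm.

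The deposited TPM of the 10 genes summed to 2959 and 3447 in GV, 2250 and 2246 in MII, 2464 and 2489 in Btg4wt, and 2924 and 2733 in Btg4tm. *Zar1l* made up 38.5% and 35.0% of that sum in GV, 2.14% and 1.71% in MII, 4.03% and 3.59% in Btg4wt, and 35.2% and 34.1% in Btg4tm. *Dazl* made up 13.8% and 14.4%, 41.9% and 41.5%, 35.0% and 35.0%, and 18.6% and 19.5% in the same order. The share of *Zar1* stayed between 20.7% and 28.7%. The sum was thus carried by *Zar1l* and *Zar1* in GV and Btg4tm and most of all by *Dazl* in MII and Btg4wt.

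**Figure D5:**
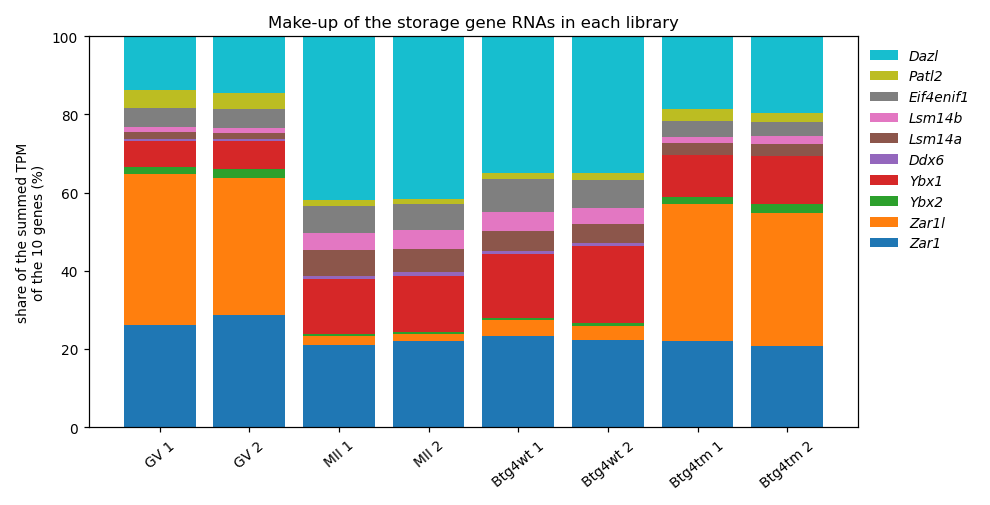
Share of each gene (vertical axis, percent) in the summed TPM of the 10 storage genes in each of the 8 libraries (bars). *Zar1l* took 34.1% to 38.5% in GV and Btg4tm and 1.71% to 4.03% in MII and Btg4wt.

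Over the 8 libraries, which share 4 group means, *Zar1l* and *Ybx2* moved together (Pearson 0.97 of log2 values), as did *Zar1l* and *Patl2* (0.94) and *Dazl* with *Lsm14a* and *Lsm14b* (0.97 each), while *Patl2* and *Dazl* moved in opposition (-0.98). These are descriptions with 8 points in 4 groups. Among 6872 other genes that averaged 10 scaled TPM or more over the libraries, those most like *Zar1* were *Gm10436* (0.98), *Tada3* (0.97) and *Gm28863* (0.96). Those most like *Dazl* were *Lrrcc1* (0.997), *Cpa1* (0.99) and *Gpatch2* (0.99).

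A wider list of 64 genes for other proteins of stored and repressed mRNPs gives the setting, of which 62 were listed in all tables and 54 were tested. It was also chosen with earlier results of these data known, so its shares are a description. From GV to MII 11 were called higher and 6 lower, or 20.4% and 11.1% against 12.5% and 24.0% of all genes tested. The median log2 fold change was 0.49, against 0.00 for all genes. With mitochondrial scaling none were higher and 44 of the 54 lower, where 81.6% of all genes were lower. Between Btg4wt and Btg4tm 6 were called higher and 11 lower in Btg4tm, or 11.1% and 20.4% against 18.1% and 7.94% of all genes. The median was -0.41 against 0.01 for all genes. With mitochondrial scaling 17 were higher and 1 lower, where 43.6% and 0.494% of all genes were. No gene of the list was called in the other comparisons. With mitochondrial scaling 3 of the 54 were called higher in Btg4wt over MII, where 0.494% of all genes were. Under that scaling 6 of the 54 were called lower in Btg4tm over GV, where 21.3% of all genes were.

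Among genes of that list averaging 10 scaled TPM or more, the largest change from GV to MII was that of *Cpeb4*, a polyadenylation element-binding protein, at 2.10 (0.03 with mitochondrial scaling). *Igf2bp3*, an mRNA-binding protein, was at 1.51 and turned to -0.65 with mitochondrial scaling. *Lsm3* at -2.05 and *Lsm6* at -1.93, subunits of the LSM ring that joins PAT1 proteins at mRNA 3′ ends, and *Pabpc1l*, the oocyte poly(A)-binding protein, at -1.65, fell under both scalings. In Btg4tm over Btg4wt, *Lsm3* at 2.15 and *Lsm6* at 2.02 were higher. *Eif4e1b*, the oocyte eIF4E, was at -2.39, the decapping enzyme *Dcp2* at -1.69 and *Atxn2l*, a stress granule protein, at -1.53. With mitochondrial scaling these last 3 were at -1.31, -0.64 and -0.44, and the call held for *Eif4e1b*. *Eif4e2*, a cap-binding protein of the eIF4E family, averaged 9.08 scaled TPM, under that limit, and is named after its values were seen, since it changed more, with -2.66 in MII over GV and 2.50 in Btg4tm over Btg4wt (-4.39 and 3.31 with mitochondrial scaling). Adjusted p-values of these genes were at most 0.00025 by limma with median-of-ratios scaling.

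The second list held 18 mRNAs known to be stored in the GV oocyte and translated in maturation, chosen with earlier results of these data known. Its shares beside all genes are thus a description and no independent support. Whether the 10 members bind these mRNAs was not tested. The list includes *Btg4*, the gene injected, and shares *Dcp1a* and *Dcp2* with the wider list. From GV to MII 10 of the 18 were called higher and none lower, or 55.6% and 0% against 12.5% and 24.0% of all genes, with a median of 1.11. More RNA and longer tails cannot be told apart in these rises. The number higher was 7 with TPM as deposited (median 0.95) and 7 with quantile normalization (median 0.90), where 8.20% and 22.6% of all genes were higher. With mitochondrial scaling none of the 18 were higher and 12 lower, where 81.6% of all genes were lower. Those called higher with median-of-ratios scaling included *Cnot6l*, a deadenylase, at 1.53 and *Dcp1a*, a decapping cofactor, at 1.32. In Btg4tm over Btg4wt 4 were called lower and none higher (*Cnot6l* at -1.08, *Dcp1a* at -1.41, *Dcp2* at -1.69 and *Pcm1* at -1.32), or 22.2% against 7.94% of all genes, with a median of -0.30. With mitochondrial scaling 5 of the 18 were higher and none lower, where 43.6% of all genes were higher. In Btg4tm over GV 1 was called higher (*Obox5*), where 1.02% of all genes were, and none with TPM as deposited or quantile normalization. None was called in Btg4wt over MII.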

How the data were processed

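Each table held one value per gene symbol. According to the methods and the labels, the authors trimmed reads with Trim Galore 0.6.10, aligned them to GRCm38 with HISAT2 2.2.0 and the GENCODE vM25 annotation, counted read pairs on exons with featureCounts 2.0.6 (primary alignments, mapping quality of at least 10, no strand) and deposited TPM. The gene lengths behind the TPM, the rule for listing a gene and the sequencing depth are not given in the sources used here, so the precision rests on 2 libraries per group. The tables listed 17384 genes (control) and 16448 (injection), with TPM sums of 996199 to 998615.

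The 15962 genes in all 8 tables were scaled by the median of ratios (factors 0.948 to 1.11). The 13968 of them that reached 1 TPM in 2 or more libraries were tested on log2(scaled TPM + 1) with limma 3.58.1 in R 4.3.3 (lmFit, contrasts.fit, eBayes with trend, all 8 libraries in one model), checked first on simulated data. The log2(TPM + 1) scale understates changes of low genes. The authors used DESeq2 on counts, which TPM do not allow. Groups and replicate numbers came from the sample titles. The 10 members and both lists were chosen with earlier results of these data known. Named genes of the wider list were the 5 largest called changes averaging 10 scaled TPM or more in MII over GV and in Btg4tm over Btg4wt. Alternatives changed the scaling (TPM as deposited, quantile normalization, mitochondrial transcripts), the pseudocount (0.1), the filter (none, 5 TPM), the libraries in the model, the replicate block, the trend, and the thresholds, and left out each library in turn. Gene models and sequences were read from GENCODE M21 on the same build.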

Additional observations from a re-analysis of the deposited data

How the results depend on the processing

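Of 120 counts of called members recomputed under the alternatives, 108 stayed within 1.5 times of the reported count. They include the counts in Btg4wt over MII and Btg4tm over GV, which were reported as 0 and mostly stayed 0. The tally is therefore a description and no measure of robustness. Of 520 log2 fold changes of single members, 482 kept their direction and side of the thresholds, 3 lost a call, 14 gained one and 21 reversed. The alternatives in the filter, in the replicate block, in the trend and with only the 4 compared libraries reuse the same scaled values. Their fold changes equal the reported ones by construction, so only the p-value could move there. With mitochondrial scaling the counts became 0 higher and 8 lower in MII over GV, 4 and 0 in Btg4tm over Btg4wt, 1 higher in Btg4wt over MII and 4 lower in Btg4tm over GV. The whole-table split moved with them, from 1752 higher and 3351 lower to 7 and 11403 in MII over GV, and from 2534 and 1109 to 6089 and 69 in Btg4tm over Btg4wt. Quantile normalization gave 3154 and 2662, and 2055 and 1810. For the other comparisons the mitochondrial split was 69 higher and 0 lower in Btg4wt over MII, and 38 and 2972 in Btg4tm over GV. The cause was not tested. Reversed with mitochondrial scaling in MII over GV were *Ybx1* (-1.53), *Ddx6* (-1.22), *Lsm14a* (-0.72), *Lsm14b* (-0.55), *Eif4enif1* (-2.11) and *Dazl* (-1.0), in Btg4tm over Btg4wt *Ybx1* (0.63), *Lsm14a* (0.53), *Eif4enif1* (0.27) and *Dazl* (0.41), in Btg4wt over MII *Ybx2* (0.40), *Ddx6* (0.27), *Lsm14a* (0.31) and *Dazl* (0.37), and in Btg4tm over GV *Lsm14b* (-0.064) and *Dazl* (-0.22). With TPM as deposited *Eif4enif1* in MII over GV was -0.068.

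With no minimum fold change, 5 members were higher and 4 lower in MII over GV, against 29.8% and 32.8% of all genes. In Btg4tm over Btg4wt 3 were higher and 6 lower, against 26.2% and 23.3%. In Btg4tm over GV 3 were higher and 2 lower, against 7.66% and 3.73%. That threshold alone had kept the added members out. Quantile normalization added calls for *Ddx6* in MII over GV (1.16) and *Eif4enif1* in Btg4tm over Btg4wt (-1.01). Leaving out one library at a time, the number of members lower in Btg4tm over Btg4wt ranged from 1 (without Btg4tm replicate 1, *Ddx6* alone) to 2, and lower in Btg4tm over GV from 0 to 1 (without GV replicate 1, *Ddx6* at -1.04). *Ddx6* in MII over GV reached 1.04 without GV replicate 2. The sign changed for 3 small differences, *Ybx2* in Btg4tm over GV (-0.306 to 0.070, above 0 without GV replicate 2 or Btg4tm replicate 1) and, in Btg4wt over MII, *Ybx2* (-0.099 to 0.013) and *Lsm14b* (-0.0009 to 0.143), both without MII replicate 1. With an arm of 1 library, that library was taken to vary like the other groups. Of 120 recomputed counts of the wider list, which also include counts reported as 0, 19 moved by more than 1.5 times or away from 0 or to it. Among them were the 11 higher in MII over GV, which became 20 with quantile normalization.

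The labels number the replicates, but nothing ties same-numbered libraries together, and their deviations correlated at -0.05 to 0.06. With the replicate number as a block, all genes gave 1755 higher and 3339 lower in MII over GV and 2527 and 1109 in Btg4tm over Btg4wt, and the counts of called members stayed at 3 and 3, and 2 and 2. Depth is unknown from TPM, and 2 libraries per group limit all intervals. *Zar1*, *Ybx1* and *Ddx6* share sequence with copies elsewhere.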
